A study of Rattus norvegicus with 20 samples.

Results

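Binding of the NF-kB subunit p65 to liver promoters was compared between 1 h and 0 h after partial hepatectomy in rats that had been fed ethanol, with ChIP-chip, in which immunoprecipitated chromatin is read on promoter tiling arrays. The comparison took 6 of the 20 arrays of the series, chosen by the diet and time in the sample titles: 3 arrays of 0h and 3 of 1h. Of 14723 tiled regions, the 14534 that held a 500 bp window of at least 4 probes entered it. No filter on low values was applied. All are called promoters here, though 1273 had no gene name. The calls depended on the fit, and none was made when only the 6 compared arrays were fitted. With the array run as a term, 5 promoters rose and 11 fell. In the fit of all 20 arrays, the promoters of 36 regions carried more p65 signal at 1h and those of 4 carried less. Those that rose included early response regulators (Egr1, Junb, Hes1, Klf6, Ier2, Btg2), acute phase and plasma proteins (Itih3, Itih4, Saa4), the metal-binding Mt1 and Mt2A, and the sterol sensor Insig1, with differences from 0.57 to 1.34 on the log2 scale.

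NF-kB is a family of dimeric transcription factors that are held in the cytoplasm by IkB inhibitors until cytokines such as TNF activate the kinases that mark those inhibitors for destruction. The freed dimers, most often p65 (Rela) with p50, bind kappaB sites and act on genes of inflammation, cell survival and the acute phase response. After partial hepatectomy the quiescent hepatocytes of the remnant are primed within the first hours by TNF and IL-6, and immediate early genes are switched on before DNA synthesis begins. Long ethanol feeding is known to impair this regeneration.

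The animals were male wild-type Sprague Dawley rats aged 8 to 10 weeks. Both groups had received the liquid diet with 36% of calories from ethanol for 5 weeks and both underwent 70% hepatectomy, so the diet and the operation were common to them. The 0h tissue was the left lateral and median lobes removed at surgery, and the 1h tissue was the right median, right lateral and caudate lobes of the remnant. Time and lobe therefore cannot be told apart. The study describes the removed lobes as within-animal controls, but its sample labels name no animal. The array identifiers hold animal numbers, 16 over the 20 arrays, which the main fit did not use. Each p-value therefore reflects only how much the samples vary, and that variation may be technical. Whole liver was used, and the cells that contributed each signal cannot be told apart. Pair-fed rats on a carbohydrate diet, with 3 arrays at each of these times, served as the dietary control. The source label reads 0h for every sample of the series, so the times were taken from titles, which the descriptions and lobes bear out.

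The layout of the arrays bears on every value below. Ethanol 0h replicates 1 and 3 lay in a run of 0h arrays, and ethanol 1h replicates 2 and 3 lay in a run of later times. Only ethanol 0h replicate 2 and ethanol 1h replicate 1 shared a run, and they also shared a slide and an animal number in the array identifiers. Across all probes this pair had the highest correlation among the 6 arrays (r = 0.76). The 0h replicate 2 correlated at 0.40 with 0h replicate 1 and at 0.05 with 0h replicate 3, while 1h replicates 2 and 3 correlated at 0.57. So the array labelled ethanol 0h replicate 2 stood nearer to a 1h array than to its own group. Without the shared slide, time and run cannot be told apart. Each main result is therefore followed by the within-slide difference, 1h replicate 1 minus 0h replicate 2, which rests on 1 array against 1 and has no test. The sign of the deposited ratio is not stated in the sources used here. The authors' peaks lay at negative deposited values, so values were multiplied by −1 and centred on each array's median. If that sign is wrong, every direction below is mirrored. Precision was limited by the number of arrays: the median standard error (SE) of the difference was 0.145. Each SE comes from the fit of all arrays, which pools the spread of all groups. It is therefore not the spread of the 6 compared arrays alone.

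In the fit of all arrays with limma, 36 of 14534 promoters rose (0.248%) and 4 fell (0.0275%) at a Benjamini-Hochberg adjusted p under 0.05. The promoters that rose had a median signal of 0.11 at 0h and 0.94 at 1h, against 0.22 and 0.27 for all promoters. By array, the median of these 36 promoters was 0.05, 0.30 and −0.01 at 0h and 0.73, 0.97 and 1.09 at 1h, in replicate order. The array of 0h on the shared slide was the highest of its group, and the 1h array of that slide the lowest of its own. In 32 of the 36 the groups did not overlap, as in 920 of all promoters (6.33%). The 4 exceptions were Egr1, Insig1, H2aj and the promoter shared by Mapk14 and Slc26a8. All 4 promoters that fell had groups that did not overlap, as in 757 of all promoters (5.21%).

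**Figure D1:**
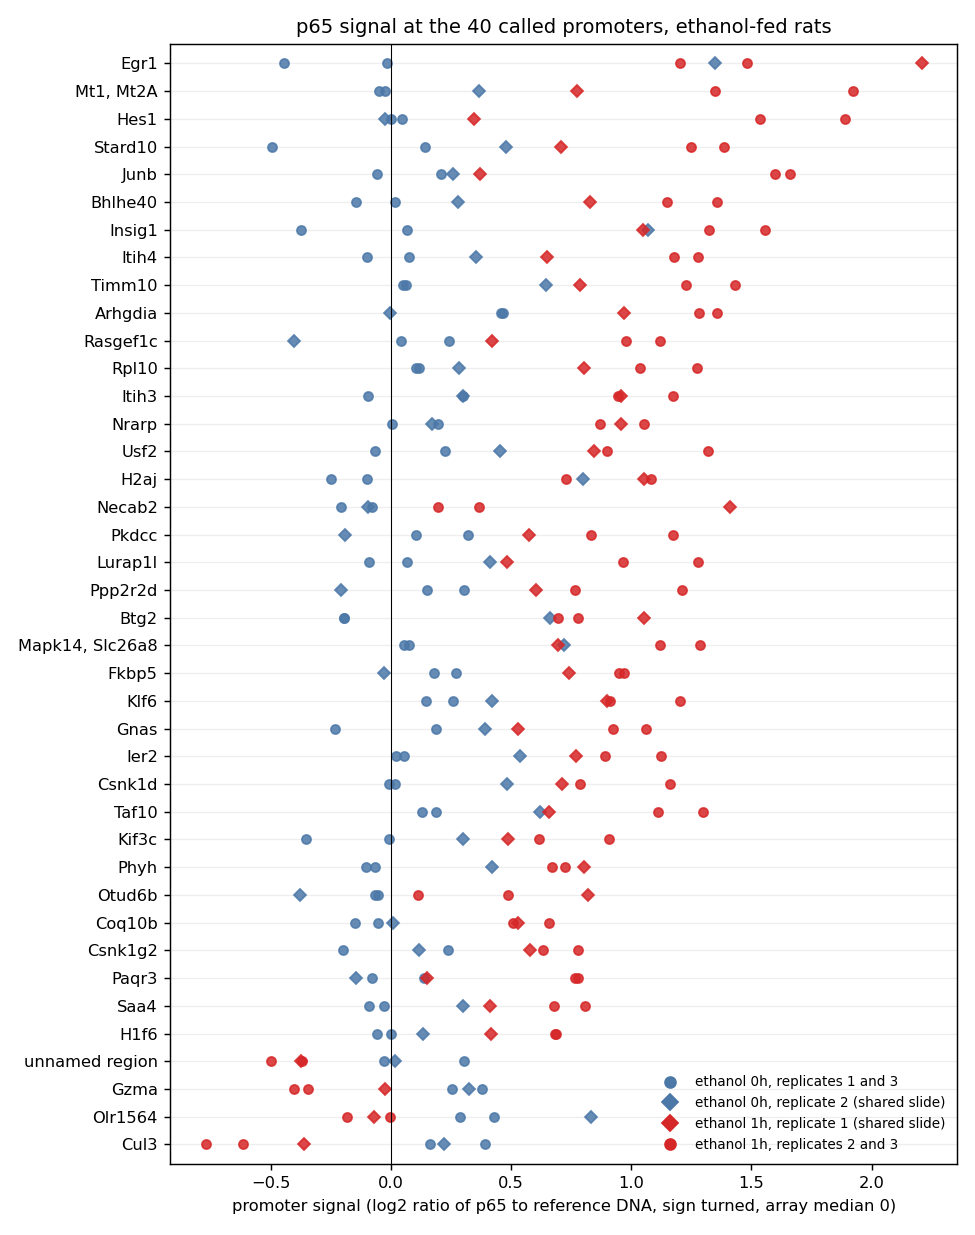
Promoter signal (log2 ratio of p65 to reference DNA, sign turned, array median 0) of the 36 promoters that rose and the 4 that fell, 1 point per array; diamonds mark the 0h and 1h arrays of the shared slide. The blue diamond lies among the 1h points at Egr1 and Insig1, while all 1h points lie above all 0h points in 32 of the 36.

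The Hes1 promoter is shown first because it is the called promoter with the largest difference whose measured window overlaps the sequence around the start in the promoter table. Hes1 encodes a transcriptional repressor best known as a target of Notch. Its signal was 0.05, −0.02 and −0.00 on the arrays of 0h and 0.34, 1.89 and 1.54 on those of 1h. All 1h arrays were higher, but the array of the shared slide was far below the other two. The difference was 1.25 (SE 0.26, adjusted p = 0.0328), and 0.37 within the slide. Timm10, a chaperone of mitochondrial protein import, Rpl10, a protein of the large ribosomal subunit, and Lurap1l, a gene similar to the actin regulator Lurap1, had windows that overlap the 300 bases shown but not the start itself. Their differences were 0.90, 0.87 and 0.78 in turn, and 0.14, 0.52 and 0.07 within the slide. The 300 bases of each, from 250 before to 50 after the start, are from RefSeq's table for GRCr8. The measured windows were placed on the array's own coordinates, whose build is not given, by distance from the start.
Hes1: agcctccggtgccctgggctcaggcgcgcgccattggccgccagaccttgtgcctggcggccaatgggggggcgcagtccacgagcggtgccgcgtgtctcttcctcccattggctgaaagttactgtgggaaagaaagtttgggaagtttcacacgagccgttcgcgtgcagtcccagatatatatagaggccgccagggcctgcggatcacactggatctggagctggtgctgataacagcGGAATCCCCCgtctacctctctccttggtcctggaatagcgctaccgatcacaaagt
Timm10: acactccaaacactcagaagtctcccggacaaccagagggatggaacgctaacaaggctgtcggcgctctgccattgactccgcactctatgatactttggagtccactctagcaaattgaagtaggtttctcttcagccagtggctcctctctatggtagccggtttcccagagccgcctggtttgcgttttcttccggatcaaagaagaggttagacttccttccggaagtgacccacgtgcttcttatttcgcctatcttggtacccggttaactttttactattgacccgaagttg
Rpl10: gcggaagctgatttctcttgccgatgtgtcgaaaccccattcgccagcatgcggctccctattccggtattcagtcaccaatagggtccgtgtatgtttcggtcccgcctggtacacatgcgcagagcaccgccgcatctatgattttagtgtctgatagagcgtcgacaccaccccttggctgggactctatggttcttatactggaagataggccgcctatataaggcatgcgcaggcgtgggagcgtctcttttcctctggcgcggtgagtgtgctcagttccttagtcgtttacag
Lurap1l: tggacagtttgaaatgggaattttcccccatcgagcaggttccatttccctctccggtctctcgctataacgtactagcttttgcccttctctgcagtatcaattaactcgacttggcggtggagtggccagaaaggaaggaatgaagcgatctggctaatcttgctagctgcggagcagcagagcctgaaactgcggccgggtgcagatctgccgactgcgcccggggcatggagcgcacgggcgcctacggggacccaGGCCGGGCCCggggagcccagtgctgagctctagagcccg
The capitals in Hes1 mark a match to the kappaB consensus on the reverse strand, which also fits the looser kappaB-like form of GGG and CC with 5 bases of any kind between them, and those in Lurap1l a match to the looser form alone. The match in Hes1 lies inside the measured window, and that in Lurap1l lies outside it. Timm10 and Rpl10 had no match to these letters in this stretch. Of 41 gene names at called promoters, 35 were found in the table.

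The kappaB consensus, searched on both strands over the same 300 bases, occurred in 3 of 33 promoters that rose and were in the table (9.09%). It occurred in 8.53% of the 11417 promoters of the table that were tested here and in 7.60% of all 27453 in it. The looser form, of which the consensus is a special case, occurred in 26 of the 33 (78.8%), against 57.3% and 48.5%. The AP-1 sequence TGANTCA, bound by Fos and Jun dimers, occurred in 1 of the 33 (3.03%), against 6.42% and 7.33%. The median GC content of the 33 was 64.7%, of the tested promoters 57.7% and of all entries 52.3%. Of the 33, only the 4 shown above had a measured window that overlaps these 300 bases. For the rest, the shares describe sequence outside the window where the signal rose. The part of GC content in the looser matches was not tested, and a match is no measured site.

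Early response regulators were among the promoters with the largest rises. Egr1, a zinc finger factor induced within minutes of growth signals, had −0.02, 1.35 and −0.44 at 0h and 2.21, 1.48 and 1.20 at 1h. The groups overlapped, because 0h replicate 2 exceeded 1h replicate 3. The difference at Egr1 was 1.34 (SE 0.28, adjusted p = 0.0328), and 0.86 within the slide. That SE pools groups of unequal spread. The SD at Egr1 was 0.94 at 0h and 0.52 at 1h after ethanol, against 0.38 and 0.19 after carbohydrate. Junb, a subunit of AP-1 and the only member of the NF-kB target list that rose, read −0.06, 0.26 and 0.21 at 0h and 0.37, 1.60 and 1.66 at 1h. Its groups did not overlap, but the 1h array of the shared slide lay just above the 0h arrays. The difference at Junb was 1.07 (SE 0.24, adjusted p = 0.0393), and 0.11 within the slide. Bhlhe40, a repressor tied to the circadian clock, had 0.02, 0.28 and −0.14 at 0h and 0.83, 1.36 and 1.15 at 1h. All arrays of 1h were well above all of 0h, with a difference of 1.06 (SE 0.15, adjusted p = 0.000941) and 0.55 within the slide. Klf6, a zinc finger factor of liver injury, rose by 0.73, Ier2, an immediate early nuclear protein, by 0.72, and the antiproliferative Btg2 by 0.75. Their within-slide differences were 0.48, 0.23 and 0.39.

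Nrarp, a feedback inhibitor of Notch signalling, had 0.19, 0.17 and 0.01 at 0h and 0.96, 0.87 and 1.05 at 1h. Its SD was 0.10 for the arrays of 0h and 0.09 for those of 1h (n = 3 each), against medians of 0.17 and 0.19 over all promoters, and every 1h array was higher. The difference was 0.84 (SE 0.13, adjusted p = 0.00303), and 0.79 within the slide. Among other nuclear proteins, Usf2, a helix-loop-helix factor, rose by 0.82, the general transcription factor subunit Taf10 by 0.71, and the histone genes H2aj and H1f6 by 0.80 and 0.57. Within the slide these were 0.39, 0.04, 0.25 and 0.28.

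Acute phase proteins are made by hepatocytes and secreted into plasma, and 3 of the list of 31 acute phase and plasma protein promoters rose. Itih3, a chain of the inter-alpha-trypsin inhibitor family, had 0.30, 0.30 and −0.09 at 0h and 0.96, 1.18 and 0.95 at 1h. The groups were well apart and the shared slide showed much the same gap, with a difference of 0.86 (SE 0.14, adjusted p = 0.00498) and 0.65 within the slide. Its neighbour in the same gene cluster, Itih4, had 0.07, 0.36 and −0.10 at 0h and 0.65, 1.28 and 1.18 at 1h, a difference of 0.93 (SE 0.17, adjusted p = 0.0167) and 0.30 within the slide. Both windows lie on chromosome 16 of the array design, at 6359097 to 6359571 for Itih3 and 6320065 to 6320504 for Itih4. Saa4, a constitutive serum amyloid A protein, rose by 0.57, and 0.11 within the slide. The promoter shared by the metallothioneins Mt1 and Mt2A, which bind zinc, had −0.05, 0.36 and −0.03 at 0h and 0.78, 1.92 and 1.35 at 1h. It was higher on every array of 1h, by 1.25 (SE 0.24, adjusted p = 0.0179), and by 0.41 within the slide.

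Promoters of lipid metabolism that rose were those of Insig1 and Stard10 from the list, with Phyh and Coq10b outside it. Insig1, which holds back the sterol-sensing SREBP complex in the endoplasmic reticulum, had −0.37, 1.07 and 0.07 at 0h and 1.05, 1.56 and 1.32 at 1h. On the shared slide the array of 0h was as high as the array of 1h. The difference was 1.06 (SE 0.23, adjusted p = 0.0344), but −0.02 within the slide. Stard10, a phospholipid transfer protein, had −0.49, 0.48 and 0.14 at 0h and 0.71, 1.39 and 1.25 at 1h, with a difference of 1.07 (SE 0.19, adjusted p = 0.0127) and 0.23 within the slide. Phyh, a peroxisomal enzyme of phytanic acid oxidation, rose by 0.65, and Coq10b, a coenzyme Q binding protein, by 0.63, with 0.38 and 0.52 within the slide.

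Further promoters that rose lay outside these lists. Arhgdia, an inhibitor that keeps small GTPases inactive, had 0.46, −0.00 and 0.47 at 0h and 0.97, 1.28 and 1.36 at 1h. Here the 0h array of the shared slide was the lowest of its group, and the difference was 0.89 (SE 0.17, adjusted p = 0.0167) with 0.97 within the slide. Rasgef1c, a guanine nucleotide exchange factor, rose by 0.88, the secreted kinase Pkdcc by 0.78 and the phosphatase subunit Ppp2r2d by 0.78. Within the slide they differed by 0.83, 0.76 and 0.81. Fkbp5, a co-chaperone of the glucocorticoid receptor, rose by 0.75 (0.77 within the slide), Gnas, the stimulatory G protein subunit, by 0.72 (0.14), and Paqr3, a Golgi regulator of Raf kinase, by 0.59 (0.30). The casein kinases Csnk1d and Csnk1g2 rose by 0.72 and 0.61, with 0.23 and 0.46 within the slide. The promoter shared by the stress kinase Mapk14 and the anion transporter Slc26a8 rose by 0.75, with −0.02 within the slide.

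Necab2, a neuronal calcium-binding protein, varied widely between the arrays of 1h. It had −0.08, −0.10 and −0.21 at 0h and 1.41, 0.37 and 0.20 at 1h, so that 1h replicate 1 stood far above the others. Its difference was 0.79 (SE 0.18, adjusted p = 0.0401), with 1.51 within the slide and 0.43 (adjusted p = 0.0311) without that slide. Otud6b, a deubiquitinase, had −0.06, −0.38 and −0.07 at 0h and 0.82, 0.11 and 0.49 at 1h. The difference at Otud6b was 0.64 (adjusted p = 0.0344), with 1.20 within the slide and 0.36 (adjusted p = 0.0758) without that slide. The motor protein gene Kif3c rose by 0.69, with 0.19 within the slide.

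The promoter with the largest fall was that of Cul3, the scaffold of a family of ubiquitin ligases that includes the one that degrades Nrf2. It had 0.16, 0.22 and 0.39 at 0h and −0.36, −0.62 and −0.77 at 1h, with every array of 1h below every array of 0h. It fell by 0.84 on the log2 scale (SE 0.13, adjusted p = 0.00119), and the difference was −0.59 within the slide. Gzma, a granzyme of cytotoxic lymphocytes, had 0.25, 0.32 and 0.38 at 0h and −0.02, −0.35 and −0.40 at 1h, and fell by 0.58. Olr1564, an olfactory receptor, had 0.29, 0.83 and 0.43 at 0h and −0.07, −0.18 and −0.00 at 1h, and fell by 0.60. An unnamed region on chromosome 13 fell by 0.51. Within the slide these last differed by −0.35, −0.90 and −0.39. All 4 fell to signals at or below the array median, and no 1h array listed a peak at any of their windows.

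Of the 36 promoters that rose, 34 also had a within-slide difference above 0, with a median of 0.39, and 20 of them lay above 0.30, a value that 5% of all promoters exceeded. Over all promoters the within-slide difference had a median of −0.05 (SD 0.22) and lay above 0 in 38.5%. These 36 were called with that pair among the arrays, so the count is a description and no separate test. A reading that is free of that choice starts from the promoters called without the shared slide, with 2 arrays of each time. There 1820 rose and 365 fell. Within the slide, 650 of the 1820 (35.7%) were higher at 1h, with a median of −0.08, and 159 of the 365 (43.6%) were higher, with a median of −0.05. Of 12349 that were not called, 38.8% were higher, with a median of −0.05. Both shares lie near the 38.5% of all promoters.

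**Figure D2:**
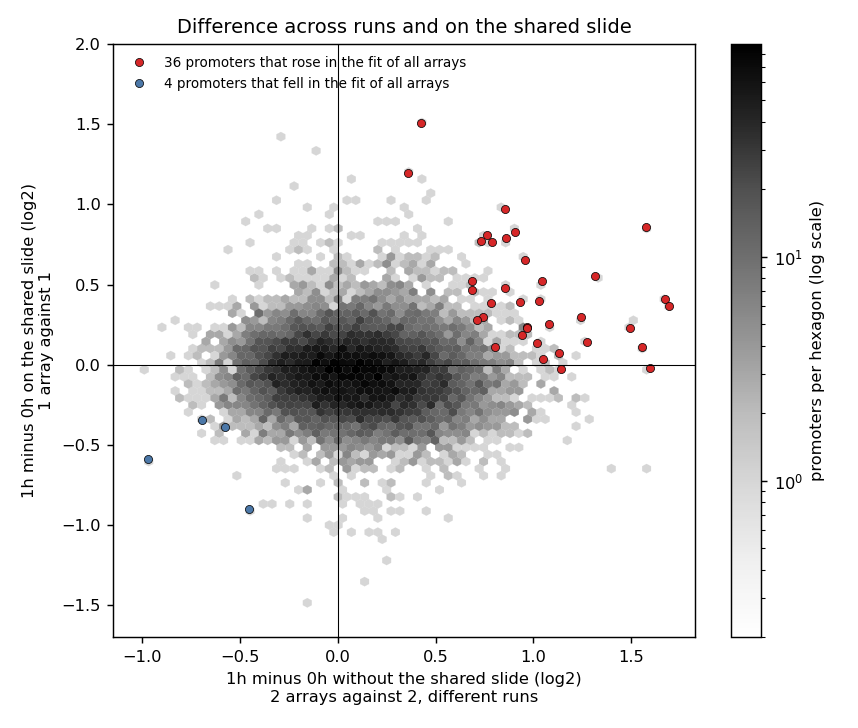
For every promoter, the 1h minus 0h difference (log2) without the shared slide (2 arrays against 2, from different runs) against the difference on the shared slide (1 array against 1); grey hexagons count all 14534 promoters, red and blue points the 36 that rose and 4 that fell. The cloud of all promoters has a median of −0.05 on the vertical axis, and 34 of the 36 red points lie above 0.

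Errfi1, an inhibitor of the EGF receptor, had the third highest difference of the immediate early list, with 0.25, 2.00 and −0.06 at 0h and 2.25, 1.86 and 1.36 at 1h. The array of 0h on the shared slide was as high as the arrays of 1h, and the difference of 1.09 did not pass (adjusted p = 0.107). Within the slide it was 0.25. Zfp36, an mRNA decay factor induced by growth signals, was chosen for its values. It had −0.01, 1.47 and 0.06 at 0h and 1.14, 1.43 and 1.24 at 1h, with −0.34 within the slide.

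With run as a term in the fit, 5 promoters rose and 11 fell, and 3 of the 40 calls held. The differences of all 36 promoters that rose stayed above 0 under that fit, with a median of 0.41, but that of Insig1 was only 0.00035. Over all promoters 6534 of 14534 were above 0, with a median of −0.02. These 36 were called on the same arrays, so this count too is a description and no separate test. When only the 6 compared arrays were fitted, none passed in either direction, and 1181 had an unadjusted p under 0.05, against 2343 in the fit of all arrays. Scaling the arrays to the same spread left 5 rises and 2 falls, and quantile normalization left 3 and 2. Without ethanol 0h replicate 2 there were 1038 rises and 140 falls, without 1h replicate 1 there were 954 and 277, and without any of the other 4 arrays at most 5 and 2.

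The gene lists were read by counts and medians beside those of all promoters, which had 36 rises, 4 falls and a median difference of 0.05. In the immediate early list 7 of 39 rose (Egr1, Hes1, Junb, Bhlhe40, Btg2, Klf6 and Ier2) and none fell, with a median of 0.33. By array the median of that list was 0.18, 0.59 and 0.12 at 0h and 0.68, 0.67 and 0.82 at 1h, so 0h replicate 2 lay near the arrays of 1h. The within-slide median was −0.02. Myc and Mcl1, a growth regulator and a survival factor, were lowest in the list, with −0.05 and −0.07.

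Of the pathway itself, none of 22 promoters of NF-kB subunits, inhibitors and activating kinases passed, and their median difference was 0.17. Bcl3, a nuclear IkB protein, had the highest difference, 0.51 (adjusted p = 0.0817). Tab1, an adaptor of the kinase Tak1, followed with 0.34, and Traf6, a ubiquitin ligase of the receptor pathways, was lowest with −0.14. Nfkbia, which encodes the inhibitor IkB alpha, had 0.36, 0.20 and 0.48 at 0h and 0.06, 0.80 and 1.12 at 1h. At Nfkbia the arrays of 1h lay both below and above those of 0h. Of 45 NF-kB targets 1 rose, with a median of 0.07. Bcl2l1, a survival factor, followed Junb with 0.67 (adjusted p = 0.0872). Il6, the cytokine of priming, had the lowest difference, −0.43 (adjusted p = 0.125), with 0.61, 0.50 and 0.59 at 0h and 0.21, −0.00 and 0.21 at 1h. None of 35 cytokine and JAK-STAT promoters passed (median 0.23), where the promoter region shared by Dapk3, Eef2 and Pias4 was highest at 0.75, that of Apof and Stat2 next at 0.52, and Pias1 lowest at −0.22. The window of the first lay nearest to the start of Eef2, and cannot be assigned to Pias4, an inhibitor of STAT signalling.

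Acute phase and plasma protein genes had 3 rises among 31, a median of 0.33, and medians by array of 0.16, 0.51 and 0.11 at 0h and 0.46, 0.66 and 0.58 at 1h. Again 0h replicate 2 lay with the arrays of 1h, and the within-slide median was 0.02. Serpinc1, which encodes antithrombin, was lowest at −0.05. The lipid list had 2 rises of 47 (median 0.16), with Cpt1a, the gate of mitochondrial fatty acid oxidation, next at 0.72 (adjusted p = 0.0564) and the fatty acid transporter Cd36 lowest at −0.30. The alcohol, xenobiotic and redox list had 1 rise of 44, that of Mt1 (median 0.15). Gpx1, a glutathione peroxidase, followed with 0.72 (adjusted p = 0.0824), and Mgst1, a microsomal glutathione transferase, was lowest at −0.51. Glucose and amino acid genes had none of 37 (median 0.25), with Hpd and Mat1a highest at 0.70 and Asns lowest at −0.49. Liver transcription factors had none of 37 (median 0.23), with Atf4, the factor of the integrated stress response, highest at 0.83 (adjusted p = 0.0683), the clock factor Bmal1 next at 0.61 and Creb1 lowest at −0.09.

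Growth factor signalling had none of 47 (median 0.08), with Igfbp4 highest at 0.68 (adjusted p = 0.0608) and Map2k1 lowest at −0.19. The region shared by Akt1, Mta1 and Zbtb42 was next to the highest at 0.62, with a window nearest to the start of Zbtb42. Apoptosis genes had none of 30 (median 0.11), with Bcl2l1 highest, the region shared by Daxx, Tapbp and Zbtb22 next at 0.61, and Faslg, a death ligand, lowest at −0.27. The cell cycle list had no rise and 1 fall among 35, that of Cul3, with a median of 0.03, and E2f3 and Ccne2 were highest at 0.48 and 0.39. Ribosome and translation genes had 1 rise of 42, that of Rpl10, with a median of 0.29; the region shared with Eef2 was next at 0.75 and Eif5a lowest at −0.20. Testis and neuronal genes, which liver does not use, had none of 44 with a median of 0.06, from −0.29 at Slc17a6 to 0.47 at Drd2 and Prm1.

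Among the markers of liver cell types none rose. The medians were 0.35 for 15 hepatocyte promoters, 0.11 for 9 of Kupffer cells and macrophages, 0.11 for 13 of stellate cells, −0.03 for 7 of sinusoidal endothelium, 0.19 for 9 of cholangiocytes and −0.04 for 23 of lymphocytes and neutrophils. Hepatocyte genes ran from −0.03 at Asgr1 to 0.64 at Tdo2 and 0.67 at Ass1. Macrophage genes ran from −0.17 at Itgam to 0.23 at C1qb and 0.31 at the region shared by C1qa and C1qc. Stellate cell genes ran from −0.13 at Col1a1 to 0.31 at Rgs5 and 0.33 at Hand2, and endothelial genes from −0.26 at Fcgr2b to 0.07 at Pecam1 and 0.11 at Tek. Cholangiocyte genes ran from −0.22 at Cftr to 0.35 at the region shared by Cdk5 and Slc4a2 and 0.56 at Cldn4. None of these named members passed. In the lymphocyte and neutrophil list Camp and Cd8b were highest at 0.27 and 0.38, Gzma fell, and Gzmb, the other granzyme, had the next lowest difference, −0.40 (adjusted p = 0.173). The array medians of the hepatocyte list ran 0.15, 0.59 and 0.13 at 0h and 0.53, 0.62 and 0.48 at 1h, while those of the lymphocyte and neutrophil list stayed between 0.14 and 0.24 on all 6. These arrays measure binding and not RNA, so the markers give no measure of how many cells of a type were present.

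**Figure D3:**
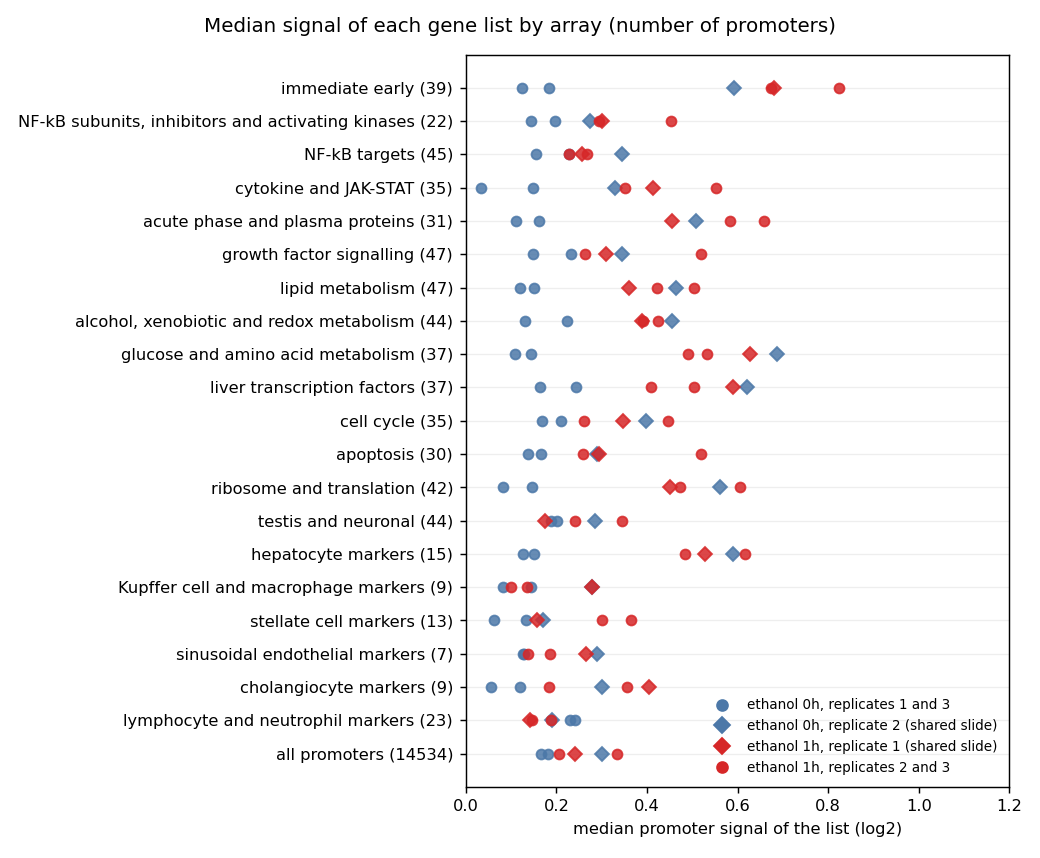
Median promoter signal (log2) of each of 20 gene lists and of all promoters on each ethanol array, with the number of promoters in brackets; diamonds mark the shared slide. The 0h diamond lies with the 1h points for the immediate early (0.59), acute phase (0.51) and hepatocyte lists (0.59), apart from the other 0h points.

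In 18 of the 20 lists the median difference was above 0, and with run as a term it was above 0 in 6 of the 20, of which 5 were among those 18. The within-slide medians of the lists lay between −0.14 and 0.02, against −0.05 for all promoters. The highest of these was that of the acute phase list.

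The windows of the promoters that rose lay more often inside the transcribed side of the start. Of the 36, 20 (55.6%) had a window centre from 500 to 1000 bp downstream of the nearest listed start, against 20.5% of 13261 promoters with a listed start. Windows within 500 bp of the start made up 13.9%, against 18.4%, and windows at least 1000 bp upstream 11.1%, against 46.9%. Cul3, Olr1564 and Gzma, which fell, had windows centred 1777, 2551 and 2000.5 bp upstream. The window was the 500 bp with the highest mean over all 20 arrays, these 6 among them. Restricting the signal to probes within 250 bp of the start left 0 calls in limma's fit, with 1213 at an unadjusted p under 0.05.

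**Figure D4:**
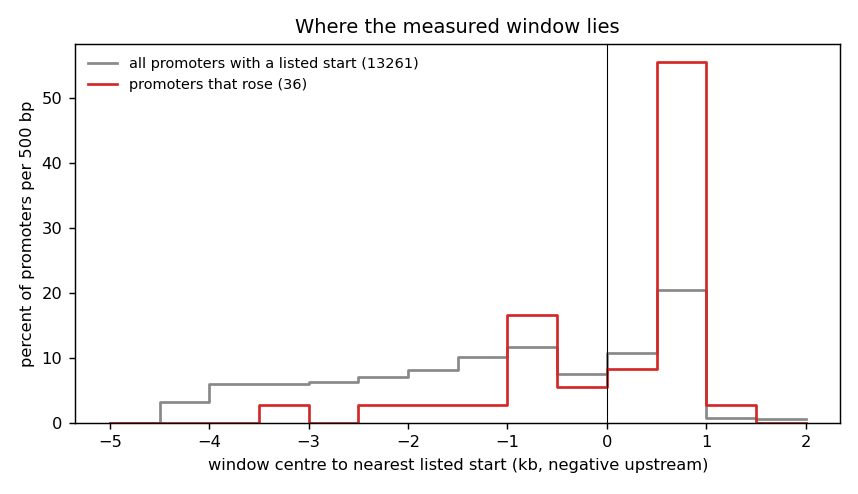
Percent of promoters per 500 bp by the distance of the window centre from the nearest listed start (kb, negative upstream), for the 36 promoters that rose (red) and all 13261 promoters with a listed start (grey). The red line peaks 500 to 1000 bp downstream, with 55.6% against 20.5%.

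The authors' peak lists gave a second reading of the same arrays. They held 3457, 5907 and 4634 peaks at 0h and 5916, 8435 and 9387 at 1h, so every 1h array had more than every 0h array, though on the shared slide the numbers were all but equal. The means were 4666 ± 1225 and 7913 ± 1793 (SD, n = 3), a difference that an exact two-sided permutation test gave p = 0.1, the smallest possible with 3 against 3. Peaks with a false discovery rate (FDR) at or under 0.05 numbered 995, 2261 and 1381 at 0h and 2524, 4136 and 4839 at 1h (exact permutation p = 0.1). On the shared slide these were 2261 and 2524.

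Peaks more than 500 bp downstream of the nearest listed start made up 15.01% ± 2.105 of peaks at 0h and 20.6% ± 3.23 at 1h (SD, n = 3; exact permutation p = 0.1). By array the shares were 15.8, 16.6 and 12.6% at 0h and 16.9, 22.8 and 22.2% at 1h, and the pair on the shared slide differed least. Peaks within 500 bp of a start made up 16.1% ± 3.42 and 18.2% ± 6.71 (SD, n = 3; exact permutation p = 0.7), so no difference beyond the spread was seen. That share was 25.6% on 1h replicate 2 and 12.5% on 1h replicate 3, and without replicate 2 the difference turned from 2.07 to −1.62 percentage points.

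**Figure D5:**
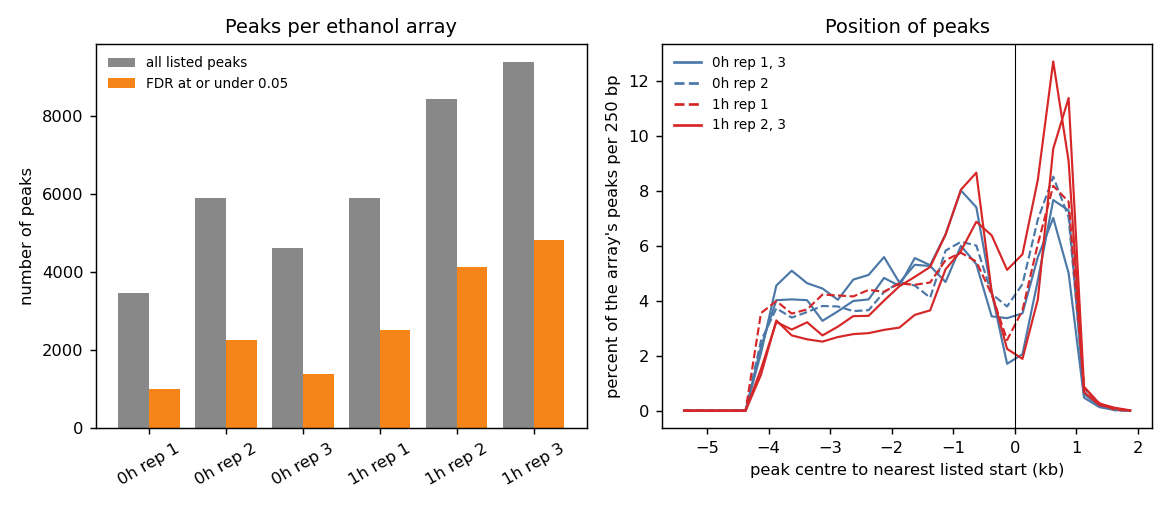
Left, the number of listed peaks on each ethanol array (grey) and of those with an FDR at or under 0.05 (orange); right, the percent of each array's peaks per 250 bp by the distance of the peak centre from the nearest listed start (kb). The bars of the shared slide, 0h replicate 2 and 1h replicate 1, are nearly equal at 5907 and 5916, and the lines of 1h replicates 2 and 3 are highest downstream of the start.

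A gene counted as bound at a time where at least 2 of the 3 arrays listed a peak for it. Of 14356 genes in the peak lists, 2836 (19.8%) were bound at 0h and 5973 (41.6%) at 1h. Of these, 4364 (30.4%) were bound at 1h and not at 0h, 1227 (8.55%) at 0h and not at 1h, and 1609 at both. The lists of 1h were longer, and with each array cut to its 3457 highest-scoring peaks, 2052 genes were bound at 0h and 2488 at 1h, with 1810 at 1h and not at 0h and 1374 at 0h and not at 1h. On the shared slide 3436 genes had a peak on both arrays, 1560 on the 0h array alone and 1601 on the 1h array alone.

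A stricter reading asked for a peak on all 3 arrays of one time and on none of the other. It held for 321 genes at 1h (2.24%) and 44 at 0h (0.306%). The authors' peak score, used here to rank within a list, was on average highest at 1h for Junb, with 0.78, 1.41 and 1.56, and Bhlhe40, with 0.86, 1.41 and 1.09. Next came Barhl2, a homeobox factor of neurons, with 1.30, 1.01 and 1.03, and Gpx1, with 0.66, 1.29 and 1.17. Rasgef1c, Rpl10 and Usf2 also belonged to the promoters that rose. Peaks were counted by gene, without asking for the same position. The highest-scoring peaks of Rpl10 and Usf2 overlapped the windows that rose. That of Rasgef1c lay at −2698 bp from the start, and its window was centred at 895.5 bp. The others of the highest 15 were Fmnl1, a formin, Cep95, a centrosomal protein, Ankle2, the ribosomal protein gene Rps6, the lectin gene Clec2g, RGD1307355 and Surf4, which share a peak, and Gclc, the rate-limiting enzyme of glutathione synthesis. Their signal differences ran from 0.31 to 0.68 and did not pass, with adjusted p from 0.0865 to 0.287. The peak at Gclc was centred 669 bp downstream of the start, and its promoter signal had a within-slide difference of 0.03.

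The 44 genes with peaks at 0h alone were led by the olfactory receptor gene Or2y15, with scores of 1.38, 0.71 and 0.59, the cationic amino acid transporter gene Slc7a1, with 0.53, 0.70 and 0.74, and Or10j27, another olfactory receptor. Further down came the protease gene Bace2, the lymphocyte GTPase gene Gimap4, the potassium channel gene Kcnc2, Hdc, which makes histamine, Tmem126a, Ttyh1 and Minar2. None of these 10 passed the signal test, and their differences ran from −0.69 to −0.04.

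Peaks on all 6 arrays were listed for 242 genes (1.69%). Among the highest in signal were Rnase4, a secreted ribonuclease, the synaptic gene Nrxn2, Prrc2a, the cold-induced RNA-binding protein gene Cirbp, Dnajb3, the mitochondrial ribosomal protein gene Mrps18b, the receptor gene Amhr2, Cacna2d1 and the transcription factor gene Nfia. Their differences lay between −0.14 and 0.43, with none past the threshold.

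By list, the share of genes bound was 25.6% at 0h and 84.6% at 1h among 39 immediate early genes. It was 26.7% and 93.3% among 30 acute phase and plasma protein genes. Of all genes, 19.8% and 41.6% were bound. These shares carry no test. In the apoptosis list 3.33% and 66.7% of 30 genes were bound, and in the NF-kB target list 12.8% and 48.9% of 47. Testis and neuronal genes had 29.5% and 36.4% of 44, and lymphocyte and neutrophil genes 29.2% and 25.0% of 24. At the windows of the 36 promoters that rose, 21 had a peak on all 3 arrays of 1h, 13 on 2 and 2 on 1. On the arrays of 0h, 26 had none and 10 had a peak on 1. The peaks and the calls come from the same arrays, and the windows of all promoters were not counted. These counts are therefore a description and no separate test.

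Carbohydrate-fed rats gave a comparison with other arrays, but from the same runs. All carbohydrate 0h arrays lay in the run of ethanol 0h replicates 1 and 3. Carbohydrate 1h replicate 1 lay in the run of the shared slide. Carbohydrate 1h replicates 2 and 3 lay in the run of ethanol 1h replicates 2 and 3. No carbohydrate 0h array therefore shared a run with a carbohydrate 1h array, so time and run cannot be told apart in that diet. After ethanol they are mixed in part, because the shared slide holds an array of each time. The part of run in these values, and in the difference between the diets, was not tested. Of the 36 promoters that rose after ethanol, 34 had a carbohydrate difference above 0, with a median of 0.49 against 0.08 for all promoters, and 19 rose there, as did 8.30% of all promoters. Both comparisons took the same pooled spread of each promoter from the same fit, and the windows were picked on the arrays of both diets. These counts are therefore a description and no separate test. The 4 that fell all had carbohydrate differences below 0, with adjusted p of 0.00479 for Cul3, 0.0272 for Gzma, 0.0135 for the unnamed region and 0.259 for Olr1564. When the ethanol change was tested against the carbohydrate change with limma, 0 promoters passed (0.0%), and 1326 had an unadjusted p under 0.05. The smallest p-values fell on Otud6b, with 0.64 after ethanol and −0.43 after carbohydrate, and Semg1, a seminal protein gene, with −0.37 and 0.77 (both adjusted p = 0.0595). Btnl7, a butyrophilin-like gene, had −0.21 and 0.70, Pbld1 −0.12 and 1.12, and Nup153, a protein of the nuclear pore, 0.34 and −0.43, with adjusted p from 0.152 to 0.431.

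At 6h, with the same 0h arrays as controls, the 36 promoters had a median difference of −0.02, and 17 were above 0. All promoters had a median of −0.02 too, with 6750 of 14534 above 0. The 6h difference was −0.53 for Egr1, −0.41 for Insig1 and 0.39 for Rasgef1c. None of these passed in limma's fit (adjusted p = 0.241, 0.270 and 0.180). At Egr1 and Insig1 0h replicate 2 had 1.35 and 1.07. The other 0h arrays had −0.02 and −0.44 at Egr1 and −0.37 and 0.07 at Insig1, and the 6h means were −0.23 and −0.15. At Rasgef1c 0h replicate 2 had −0.41, the other 0h arrays 0.24 and 0.04, and the 6h mean was 0.35. The 1h and 6h comparisons share their 0h arrays.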

How the data were processed

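NimbleGen tiling arrays carried 713735 probes. The deposited table of the authors gave 1 log2 ratio of immunoprecipitated (Cy5) to reference DNA (Cy3) per probe. The channel labels call the reference input DNA, while the labelling protocol speaks of DNA from an IgG precipitation. The authors' deposited peak lists gave each peak's score, false discovery rate (a p-value type measure), position and nearest start, per the file headers, 1 list per array with no pooling. The peak caller, genome build and centring of the ratios are not given in the sources used here.

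Values were multiplied by −1 and centred on the array median. Probes less than 1000 bp apart formed a tiled region, and its signal was the mean of the 500 bp window of at least 4 probes with the highest mean over all arrays. Of 14534 regions, 13261 had gene names, of which 1149 named several. Array run, slide and animal number came from identifiers of the arrays (4 runs, 11 slides, 16 animals). limma 3.58.1 in R 4.3.3 (lmFit, contrasts.fit, eBayes with trend, two-sided) fitted 6 group means to all 20 arrays, with Benjamini-Hochberg adjustment and a threshold of 0.05. Python 3.11.15 with pandas 2.3.3, numpy 2.4.6, scipy 1.17.1 and matplotlib 3.10.9 did the rest. On simulated data, with independent noise and 14534 promoters, the fit recovered 6% of changes of 0.4 and 87% of changes of 0.8 in this comparison, with 5 false calls.

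The comparison, the gene lists and the rules were chosen with earlier results of these data known. Named were the called promoters, the 2 highest and the lowest member of each list, the 15, 10 and 10 leading genes of 3 peak classes, and the 5 smallest p-values between diets. A gene of the last peak class is not reported here. Errfi1, Zfp36, Myc, Nfkbia, Cpt1a and Gzmb were named after their values were seen. Of 14678 accessions in the files, 13670 were matched to RefSeq and 3476 took a newer symbol. The closing section gives the effect of 21 other settings of the fit.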

Additional observations from a re-analysis of the deposited data

Results flagged for a closer look

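Among the 91 promoters named by the rules, 3 had groups that did not overlap in either diet and differed in opposite directions, as 35 of all 14534 did (0.241%). Otud6b and Nup153 were among the 5 promoters named for the smallest p-values between the diets. The share among the 91 is therefore partly set by that choice and cannot be read against that of all promoters. None of the 3 passed limma's test of the difference between the diets. Otud6b, a deubiquitinase gene, differed by 0.64 after ethanol and −0.43 after carbohydrate, a difference of 1.07 (adjusted p = 0.0595). Nup153, a nuclear pore gene, had 0.34 and −0.43, a difference of 0.77 (adjusted p = 0.431). Col1a1, which encodes a collagen chain made by stellate cells, had −0.13 and 0.17, a difference of −0.30 (adjusted p = 0.544).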

How the results depend on the processing

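The fit of all arrays gave 36 rises, 4 falls and 0 promoters that differed between the diets. Rises and falls numbered 0 and 0 with the compared arrays alone (1181 at an unadjusted p under 0.05), 5 and 11 with run as a term, 5 and 2 with arrays scaled to the same spread, 3 and 2 after quantile normalization, 1182 and 278 with array weights, 359 and 178 for means over whole tiled regions, 0 and 0 within 250 bp of the start (1213 at an unadjusted p under 0.05), and 151 and 16 in a 1000 bp window. With only promoters of mean signal above 0 the falls numbered 2, and in the deposited direction, where other windows are picked, there were 0 and 0 (1376 unadjusted). Leaving out 1 array gave from 4 to 1038 rises, from 1 to 277 falls and from 0 to 79 differences between the diets: without ethanol 0h replicate 2 there were 1038 and 140, without 1h replicate 1 there were 954 and 277, and without any of the other 4 arrays 4 or 5 rises and 1 or 2 falls. Without both arrays of the shared slide there were 1820 and 365. Slide or animal as a block gave 34 and 4, and a fit without the variance trend 49 and 4. Differences between the diets numbered 3 with run, with slide, with equal spread, with quantile normalization and without the shared slide, and 2 with animal, with array weights and with the replicate block. The replicate block gave 86 rises and 10 falls and kept all 40 calls, but the numbers did not pair the arrays: deviations of same-numbered arrays correlated at −0.16, −0.14 and 0.26. The cause of these shifts was not tested.

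Within 250 bp of the start the differences of Stard10 (−0.00092), Insig1 (−0.023), Rasgef1c (−0.11), Usf2 (−0.11), Necab2 (−0.087), Pkdcc (−0.10), Mapk14 and Slc26a8 (−0.075), Fkbp5 (−0.013), Paqr3 (−0.12) and Gzma (0.014) turned sign, as did Fkbp5 (−0.034) and Otud6b (−0.068) in the 1000 bp window and Paqr3 (−0.085) over the tiled region. Genes bound at 1h and not at 0h numbered 2596 with an FDR at or under 0.05, 2897 with peaks within 1000 bp of the start, 1810 with lists of equal length (chosen after seeing the data) and 321 by the strictest rule. Those bound at 0h and not at 1h numbered 327, 502 and 44 under the FDR, distance and strictest rules, and 1374 with lists of equal length. Leaving out 1 array gave from 1867 (without 1h replicate 2) to 5255 of the former and from 366 (without 0h replicate 3) to 1879 (without 1h replicate 3) of the latter. The difference in the share of peaks within 500 bp of a start ran from −1.62 to 4.93 percentage points over these.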
